A study of Homo sapiens with 6 samples.

Results

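The Kruppel-like factors are zinc finger transcription factors, and 10 of them, KLF2, KLF3, KLF4, KLF5, KLF6, KLF7, KLF9, KLF10, KLF13 and KLF17, were examined in human iPSC aggregates. They were found by matching the Ensembl identifiers of the count files to the symbols of GENCODE 44 (GRCh38), and all 10 were present among the 19977 genes listed for each library. The transcripts came from NCRM-1, an iPSC line derived from CD34+ cord blood cells with episomal plasmids. Bulk poly(A) RNA was sequenced after 4 days in vertical wheel bioreactors, from 3 samples in E8 with polyethylene glycol at 10 mg/ml plus heparin sodium salt at 0.1 µg/ml (PEG and HS) and 3 samples in E8 alone (E8 control, or controls). Both arms were wild type, were seeded as single cells and had 50% of the medium replaced on day 2. The 2 additives were always given together, so their separate effects cannot be told apart. The labels name 1 bioreactor for each medium, and vessel and medium cannot be told apart if the 3 samples of a medium shared a vessel. P-values then measure the spread between samples of one vessel. The free-text treatment label describes both additives for all 6 samples, and the groups used here follow the treatment assigned to each sample.

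Kruppel-like factors carry a DNA-binding domain of C2H2 zinc fingers at the C-terminus and bind GC-rich and CACCC-type sequences, as do the related SP factors. Their N-termini differ and set their partners. One branch (KLF1, KLF2, KLF4, KLF5, KLF6 and KLF7) is known mostly for activation through p300 and CBP, and a second (KLF3, KLF8 and KLF12) for repression through CtBP. Another (KLF9, KLF10, KLF11, KLF13, KLF14 and KLF16) is known for binding the SIN3A corepressor. KLF15, KLF17 and KLF18 were placed in no branch here. In pluripotent cells KLF2, KLF4 and KLF5 are best known for sustaining the naive state of the mouse, KLF4 is one of the classical reprogramming factors, and KLF17 marks the naive state in human cells.

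Reads counted on genes ran from 26991279 to 36185138 per library, and the ranges of the media overlapped. Values are given as CPM, a gene's counts scaled to a common library size (TMM), and log2 fold changes above 0 mean more transcript with the additives. Genes were called where the quasi-likelihood test of edgeR gave a Benjamini-Hochberg adjusted p under 0.05 over the 16505 genes tested. All 8 pluripotency markers of the cell check (POU5F1, SOX2, NANOG, LIN28A, DNMT3B, SALL4, ZFP42 and PRDM14) exceeded 1 CPM. Of 7 blood markers none did, HBG1 was at 0 in each library, and HBA2, whose reads are uncertain because HBA1 is a near-identical copy, was called lower by edgeR from 15 counts (0 and 0.158 CPM), while DESeq2 gave it no adjusted p. In bulk samples, fewer cells of a type and less RNA per cell cannot be told apart.

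Of the 10 Kruppel-like factors, 4 fell in PEG and HS (KLF4, KLF5, KLF7 and KLF13), 1 rose (KLF10), 4 were not called (KLF2, KLF3, KLF6 and KLF9), and KLF17 had too few counts to be tested. The 2 largest differences were in KLF5, with a 1.99-fold lower level, and KLF4, with a 1.82-fold lower level. KLF7, KLF10 and KLF13 differed by 1.21-fold, 1.17-fold and 1.09-fold. Over all genes tested 25.3% were called, 12.2% higher and 13.1% lower, and 5 of the 9 tested members were called. In 7 of the 9 tested members the 3 libraries of one medium did not overlap the 3 of the other, 5 lower and 2 higher. Of all tested genes 39.3% did not overlap, 19.8% lower and 19.5% higher. The median log2 fold change of the 9 was -0.25, against 0.0031 over all genes tested.

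**Figure D1:**
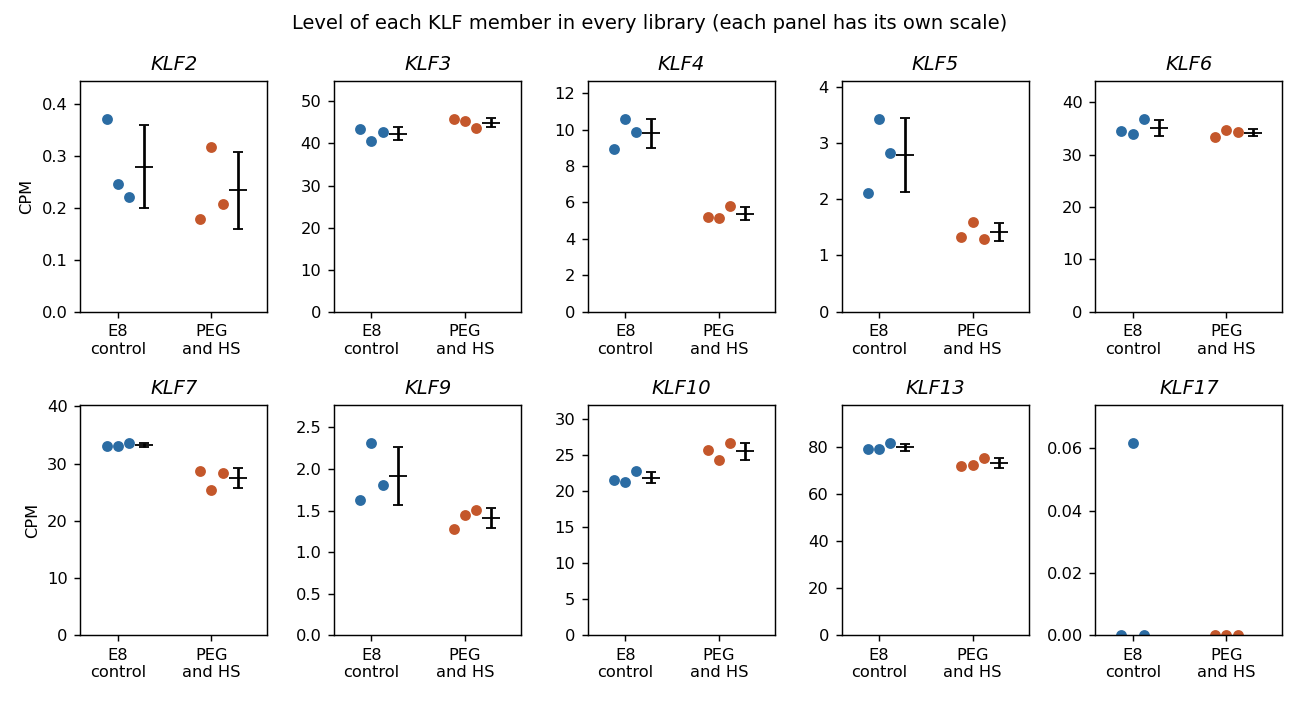
CPM (vertical axis, each panel with its own scale from 0) of the 10 Kruppel-like factors in the 3 E8 control and 3 PEG and HS libraries, one point per library, with the mean and SD beside them for tested genes. KLF4 and KLF5 show the widest gaps between media, KLF10 is the called gene with PEG and HS on top, and KLF2 and KLF6 overlap.

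KLF4 (ENSG00000136826, GRCh38 chr9:107484852-107490482, minus strand), a reprogramming factor that also drives epithelial differentiation, was counted 518 times over the PEG and HS libraries and 941 times over the controls. The CPM values were 5.22, 5.17 and 5.79 against 8.93, 10.6 and 9.89. All PEG and HS libraries lay below all E8 control libraries. The means were 5.39 ± 0.347 CPM (SD, n = 3) and 9.79 ± 0.817 CPM (SD, n = 3), a log2 fold change of -0.86 (SE 0.089, 95% interval -1.05 to -0.67, adjusted p = 3.34e-06 by edgeR's quasi-likelihood test). Of the genes tested, 4.3% had a lower log2 fold change. No 31-base word of its transcripts occurs in transcripts of another gene, but an antisense lncRNA, ENSG00000289987, covers 9.75% of its exon length and was not counted separately.

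KLF5 (ENSG00000102554, chr13:73054976-73077541, plus strand), known for intestinal crypt growth and for the trophectoderm of the early embryo, had fewer reads. It was counted 45 times in each of PEG and HS replicates 1 and 2, 44 times in replicate 3, but 57, 111 and 102 times in the E8 control replicates. The CPM values were 1.33, 1.59 and 1.30 against 2.11, 3.42 and 2.83, again without overlap. E8 control replicate 1 lay lowest of its group, and the coefficient of variation in E8 control was 23.4%, against 11.3% in PEG and HS. The means were 1.41 ± 0.160 CPM and 2.79 ± 0.653 CPM (SD, n = 3 each), with a log2 fold change of -0.996 (SE 0.20, 95% interval -1.42 to -0.57, adjusted p = 0.00165 by edgeR's quasi-likelihood test). The interval overlaps that of KLF4, and the difference between the 2 fold changes was not tested.

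The sequences around the annotated starts of these 2 genes, the members with the largest differences, are shown from RefSeq (GRCh38.p14), each from 250 bases before to 50 bases after a start, 5′ to 3′ on the strand of the gene. Capitals mark each GC box (GGGCGG, or CCGCCC on the other strand) and each CACCC box (CACCC, or GGGTG on the other strand), the 2 kinds of letters that Kruppel-like and SP factors are known to bind. RefSeq gives KLF5 a pair of starts.
KLF4, chr9:107489720-107490019, minus strand: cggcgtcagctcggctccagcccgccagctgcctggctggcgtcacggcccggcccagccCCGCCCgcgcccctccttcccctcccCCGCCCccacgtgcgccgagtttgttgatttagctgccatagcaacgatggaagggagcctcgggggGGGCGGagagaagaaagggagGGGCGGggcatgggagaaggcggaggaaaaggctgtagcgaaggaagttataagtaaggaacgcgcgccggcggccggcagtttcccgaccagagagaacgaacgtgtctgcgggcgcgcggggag
KLF5, chr13:73054726-73055025, plus strand: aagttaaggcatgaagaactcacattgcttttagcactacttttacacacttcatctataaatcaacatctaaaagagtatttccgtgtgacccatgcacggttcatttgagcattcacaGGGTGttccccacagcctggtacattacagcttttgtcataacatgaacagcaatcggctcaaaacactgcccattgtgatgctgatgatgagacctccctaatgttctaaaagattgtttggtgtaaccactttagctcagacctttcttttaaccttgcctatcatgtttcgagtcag
KLF5, chr13:73058755-73059054, plus strand: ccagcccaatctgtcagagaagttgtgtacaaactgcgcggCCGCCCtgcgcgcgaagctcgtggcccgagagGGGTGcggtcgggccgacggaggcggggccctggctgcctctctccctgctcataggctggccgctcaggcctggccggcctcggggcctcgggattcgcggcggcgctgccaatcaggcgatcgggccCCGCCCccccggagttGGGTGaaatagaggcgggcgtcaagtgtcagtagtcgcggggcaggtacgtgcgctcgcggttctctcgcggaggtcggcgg

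The KLF4 window held 4 GC boxes and 0 CACCC boxes in a stretch of 69.0% GC. It also held 1 E-box (CACGTG), a palindrome that 7.26% of windows hold. The upstream KLF5 window held 0 GC boxes and 1 CACCC box at 40.7% GC, and the downstream window 2 of each at 71.3% GC. Over 35116 RefSeq windows of the same length, 45.0% held a GC box and 59.9% a CACCC box on either strand, with a median of 58.7% GC. Windows were found for 8 of the 10 members (12 windows). Of these 12 windows, 7 held a GC box, 7 a CACCC box and 3 an E-box (1 window each of KLF4, KLF6 and KLF7). Counted by gene, at least 1 window of 7 members held a GC box, and at least 1 window of 4 members (KLF5, KLF7, KLF13 and KLF17) held a CACCC box. Some members had several windows, so the counts by gene are not comparable with the shares of windows. The cAMP response element TGACGTCA occurred in 0 of the 12 windows and in 1.85% of all windows. Called and uncalled members both held GC boxes (KLF4, KLF5, KLF7 and KLF13, but also KLF2 and KLF6), and the single KLF9 window, at 32.7% GC, held none. These are matches of letters and say nothing of binding.

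Among the other factors of the activator branch, KLF7 (ENSG00000118263, chr2:207074137-207173856, minus strand), known from neuron outgrowth and fat cell development, stood at 28.7, 25.5 and 28.4 CPM with PEG and HS against 33.0, 33.1 and 33.6 CPM in the controls. The E8 control libraries were close together (coefficient of variation 0.949%), and PEG and HS replicate 2 was the lowest of all. The log2 fold change was -0.27 (SE 0.051, 95% interval -0.38 to -0.16, adjusted p = 0.00103 by edgeR's quasi-likelihood test). KLF6 (ENSG00000067082, chr10:3775996-3785281, minus strand), which responds to tissue injury, was measured at 33.4, 34.8 and 34.4 CPM with PEG and HS against 34.5, 33.9 and 36.7 CPM in the controls, and the media overlapped. Its log2 fold change of -0.038 had a 95% interval of -0.13 to 0.059 (adjusted p = 0.594).

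KLF2 (ENSG00000127528, chr19:16324826-16328685, plus strand), the flow-induced factor of endothelial cells, was counted 6, 9 and 7 times with the additives but 10, 8 and 8 times in the controls. The interval of its log2 fold change ran from -1.26 to 0.77 (estimate -0.25, adjusted p = 0.758 by edgeR's quasi-likelihood test) and no difference was detectable at this depth. KLF17 (ENSG00000171872, chr1:44118821-44135140, plus strand) had 2 counts in E8 control replicate 2 and 0 in the other 5 libraries. A count of 0 allows up to 0.0831 to 0.111 CPM in these libraries, for counting error only, and KLF17 has 5.35% of its 31-base words in common with other genes, mainly the pseudogene KLF17P1. Over the 6 genes of the activator branch, with KLF1 and without KLF17, 3 fell and 3 were not called, with a median log2 fold change of -0.26. The share called lower over all genes tested was 13.1%.

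In the CtBP branch, KLF3 (ENSG00000109787, chr4:38664197-38701517, plus strand), a repressor in blood and fat cells, was at 45.7, 45.4 and 43.7 CPM with PEG and HS against 43.6, 40.7 and 42.7 CPM in the controls. The PEG and HS libraries lay just above the E8 control libraries, with the closest pair at 43.73 and 43.55 CPM. The log2 fold change of 0.087 (SE 0.041, 95% interval -0.00049 to 0.17) did not pass the test (adjusted p = 0.141 by edgeR's quasi-likelihood test). KLF3-AS1, on the opposite strand, covers 3.91% of its exon length.

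Of the 3 members of the SIN3 branch, KLF10 rose, KLF13 fell and KLF9 was not called. KLF10 (ENSG00000155090, chr8:102648784-102655725, minus strand), first described as a TGF-beta-inducible early gene, was at 25.7, 24.3 and 26.7 CPM with PEG and HS against 21.6, 21.3 and 22.8 CPM in the controls, without overlap. Its log2 fold change was 0.22 (SE 0.054, 95% interval 0.11 to 0.34, adjusted p = 0.00638 by edgeR's quasi-likelihood test). KLF13 (ENSG00000169926, chr15:31326835-31435665, plus strand), a factor of T cells and the developing heart, was at 71.9, 72.3 and 75.5 CPM with PEG and HS against 79.0, 79.2 and 81.7 CPM in the controls. The gap was small but free of overlap, with a log2 fold change of -0.13 (SE 0.033, 95% interval -0.20 to -0.056, adjusted p = 0.011). Without PEG and HS replicate 1 the log2 fold change was -0.11 and the adjusted p 0.0552, which missed the threshold, while without E8 control replicate 3 it was -0.11 with an adjusted p of 0.0456.

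KLF9 (ENSG00000119138, chr9:70384604-70414657, minus strand), a factor induced by glucocorticoid and thyroid hormone, was counted 43, 41 and 51 times with the additives but 44, 75 and 65 times in the controls. As CPM these were 1.28, 1.45 and 1.51 against 1.63, 2.31 and 1.80, and the media did not overlap. The log2 fold change of -0.44 (SE 0.20, 95% interval -0.87 to -0.022) had an unadjusted p of 0.0407 and an adjusted p of 0.119 by edgeR's quasi-likelihood test. It was larger in size than that of KLF7 or KLF13, which were called from 5824 and 14675 counts over the 6 libraries, against 319 for KLF9.

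**Figure D2:**
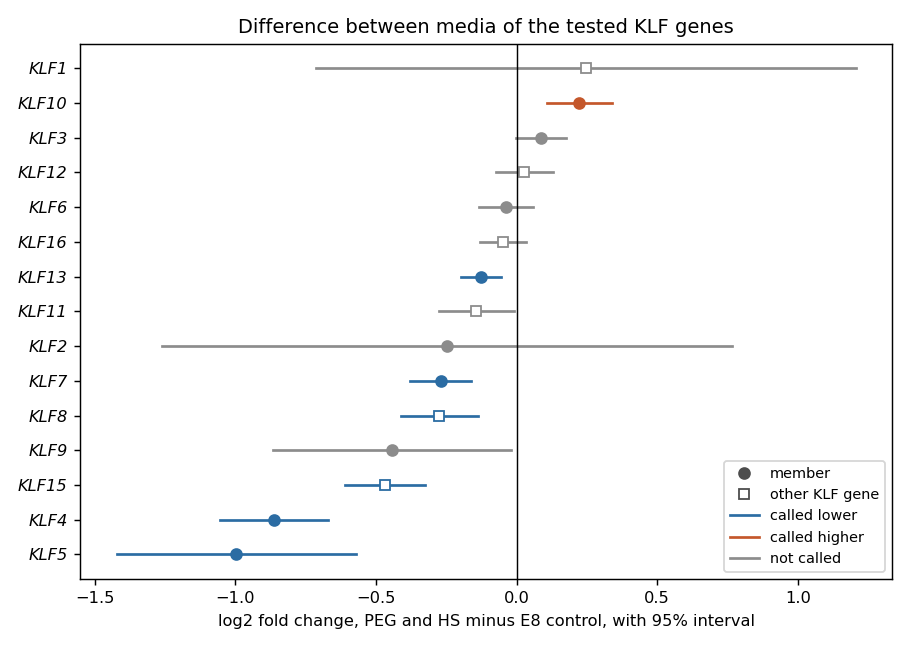
Log2 fold change (horizontal axis, PEG and HS minus E8 control) with its 95% interval for the 15 tested Kruppel-like factor genes, sorted by value, with circles for members, open squares for the other family genes and colour for the call. KLF5 and KLF4 lie lowest with intervals clear of 0, KLF10 is the called gene above 0, and the intervals of KLF1 and KLF2 are widest.

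The family holds 8 further genes, of which 6 were tested, 2 fell and 4 were not called, where 13.1% of all genes tested fell. None rose by edgeR, DESeq2 or limma-voom, or was higher at an unadjusted p under 0.05. KLF15 (ENSG00000163884), known for glucose and amino acid metabolism in liver and muscle, was at 14.6, 16.1 and 15.01 CPM with PEG and HS against 19.8, 20.4 and 22.8 CPM in the controls (log2 fold change of -0.47 with SE 0.066, adjusted p = 7.8e-05 by edgeR's quasi-likelihood test). KLF8 (ENSG00000102349), a CtBP-binding repressor tied to epithelial-mesenchymal transition, was at 12.5, 13.3 and 12.9 CPM against 15.2, 14.9 and 16.6 CPM (log2 fold change of -0.27 with SE 0.064, adjusted p = 0.00534). Neither had overlapping libraries. KLF11 was also without overlap at a log2 fold change of -0.14, but missed the threshold (adjusted p = 0.111). KLF12 (0.028), KLF16 (-0.048) and the erythroid factor KLF1 (0.25, from 81 counts) were not called, with adjusted p of 0.722, 0.4 and 0.744. KLF14 and KLF18 had 3 counts each over the 6 libraries and were not tested. Over all 18 genes, 6 fell, 1 rose and 8 of the 15 tested were not called, and no test of members against the other family genes was made.

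Levels of different genes were compared as CPM per kilobase of annotated exon length. KLF13 was the most abundant member on this scale, at 7.77 ± 0.212 CPM per kilobase in PEG and HS and 8.48 ± 0.157 in E8 control (SD, n = 3 each). KLF3, KLF10 and KLF6 followed, with means over the 6 libraries of 6.44, 6.21 and 5.64 CPM per kilobase. Their ranges over both media overlapped from each to the next. Within a medium the place of KLF10 differed. In E8 control it was at 5.574 to 5.969, below KLF3 (6.005 to 6.432). With PEG and HS it was at 6.363 to 6.983, overlapping KLF3 (6.459 to 6.749) and above KLF6 (5.444 to 5.661). KLF7 (3.16) and KLF4 (2.07) came below them, and their ranges overlapped between the media but not within either. Within PEG and HS, KLF7 was at 2.65 to 2.98 and KLF4 at 1.41 to 1.58. In E8 control they were at 3.435 to 3.493 and 2.439 to 2.883. KLF5 (0.570) and KLF9 (0.320) also overlapped between the media only. KLF5 was at 0.353 to 0.433 and KLF9 at 0.245 to 0.290 within PEG and HS. The E8 control libraries had 0.574 to 0.929 and 0.314 to 0.444, and KLF2 had a mean of 0.0911 over the 6 libraries. KLF13 exceeded 69.7% of the tested genes on this scale, KLF4 40.7%, KLF5 24.9% and KLF2 10.2%. Of the members known from the naive state, KLF2, KLF5 and KLF17 were among the 4 lowest on this scale, and KLF4 was above them. KLF16, no member, was higher than all members (22.5 CPM per kilobase). An antisense lncRNA, ENSG00000267125, covers 16.3% of the exon length of KLF16 and was not counted separately.

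**Figure D3:**
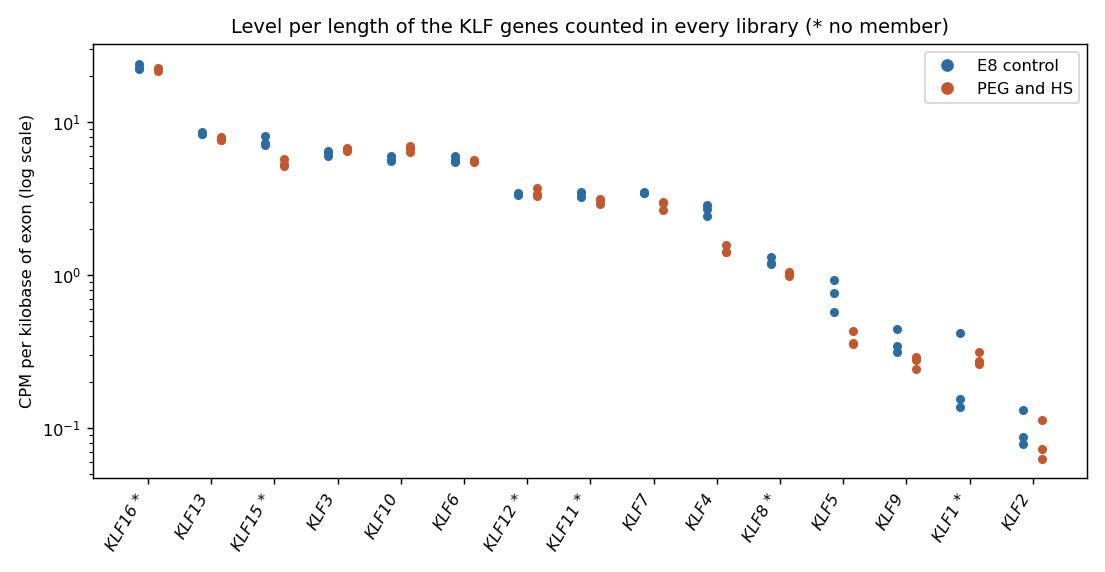
CPM per kilobase of exon (vertical axis, log scale) in each library for the 15 family genes counted in all 6 libraries, ordered by their mean, with E8 control at the left and PEG and HS at the right of each name and an asterisk for genes that are no members. KLF16 is highest at 22.5, KLF13 leads the members at 8.12, and KLF2 is lowest at 0.0911.

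Summed over the 10 members, the level per kilobase was 31.6, 31.3 and 32.3 CPM per kilobase in PEG and HS and 33.0, 33.3 and 34.3 in E8 control. The E8 control sums were higher without overlap. KLF4 made up 4.51% to 4.90% of this sum in PEG and HS and 7.40% to 8.66% in the controls, and KLF5 1.09% to 1.38% and 1.74% to 2.79%. KLF10 made up 16.7% to 17.4% in the controls and 20.3% to 21.6% in PEG and HS. KLF13 held 24.1% to 24.8% with PEG and HS and 25.2% to 25.4% in the controls. These shares depend on each other and on the exon lengths, and are given without a test.

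The SP factors bind the same kind of sequence. Of the 9, 2 fell and 7 were not called, with a median log2 fold change of -0.15. Among all genes tested 13.1% fell and 12.2% rose. SP8, a factor of limb and forebrain development, fell from 44.5 ± 1.51 to 37.0 ± 1.12 CPM (SD, n = 3 each, log2 fold change -0.27, SE 0.043, adjusted p = 0.000238 by edgeR's quasi-likelihood test), and SP2 from 29.1 to 26.3 CPM (adjusted p = 0.0373, but 0.0989 by DESeq2). The ubiquitous SP1 was at 153 CPM with PEG and HS against 151 CPM in the controls (adjusted p = 0.668). Of 10 cofactors, among them CTBP1, SIN3A and EP300, 2 rose and 2 fell. HDAC2 (log2 fold change 0.14, adjusted p = 0.00195) and CTBP2 (0.084, adjusted p = 0.0323) were higher, and CREBBP (-0.12, adjusted p = 0.00508) and HDAC1 (-0.13, adjusted p = 0.00704) lower. Of 10 genes that act on the turnover of these proteins, such as the ubiquitin ligases WWP1 and FBXW7, 9 were tested and 0 called by edgeR, DESeq2 or limma-voom. At an unadjusted p under 0.05, 1 of them was higher and 2 were lower in edgeR.

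Upstream genes were counted in 4 lists, beside 12.2% of all tested genes called higher and 13.1% called lower. Of 8 genes of the ERK5 and MEF2 route, which induces KLF2 and KLF4 in endothelial cells, MEF2D fell (log2 fold change of -0.24 with SE 0.046, adjusted p = 0.00129 by edgeR's quasi-likelihood test) and the other 7 were not called. Of SRF and 5 partners, 2 rose and 2 fell. The ETS factor ELK3 was at 33.3 CPM with PEG and HS against 25.0 CPM in the controls (log2 fold change 0.41, adjusted p = 2.46e-05), ELK4 rose by 0.23, and SRF (-0.14, adjusted p = 0.00377) and ELK1 (-0.13, adjusted p = 0.0306, but 0.0536 by DESeq2) were lower. Of 7 genes of the LIF and STAT3 route, 2 rose, JAK1 (0.22, adjusted p = 0.000677) and LIF (0.44, adjusted p = 0.0137), while STAT3 was at 128 and 127 CPM. Of 4 receptors for corticosteroids and thyroid hormone, THRB fell from 8.89 ± 0.960 to 3.53 ± 0.0609 CPM (log2 fold change of -1.34 with SE 0.10, adjusted p = 1.11e-07) and NR3C1, the glucocorticoid receptor, from 21.1 to 17.2 CPM (adjusted p = 0.0024). The median of these 4 was -0.46.

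Of 18 genes described elsewhere as targets of Kruppel-like factors, 4 rose, 5 fell and 9 were not called, with a median log2 fold change of 0.076. The shares over all genes tested were 12.2% higher and 13.1% lower. SMAD7, an inhibitor of TGF-beta signalling that KLF10 is known to repress, was at 40.8 ± 1.06 CPM with PEG and HS against 24.7 ± 0.936 CPM in the controls (log2 fold change of 0.73 with SE 0.046, adjusted p = 1.37e-08 by edgeR's quasi-likelihood test). PDGFA, a growth factor under KLF5 in smooth muscle, rose as well (0.43, adjusted p = 7.42e-07). The epithelial cadherin CDH1, which KLF4 is known to activate, was at 445 and 584 CPM (log2 fold change -0.39, adjusted p = 1.01e-07), and the cell cycle inhibitor CDKN1C fell by 0.62 on the log2 scale. CDKN1A, the best-known target of KLF4 and KLF6, was at 11.1 and 10.1 CPM and was not called (adjusted p = 0.226). Of the 8 pluripotency markers, 3 rose and 4 fell, led by NANOG (log2 fold change 0.55) and SOX2 (-0.59). Their summed level was 6429 to 6668 CPM with PEG and HS and 6570 to 6736 CPM in the controls. From a heatmap of these same data, the paper described core pluripotent genes, and KLF4 at low expression, as similar in level between the media.

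**Figure D4:**
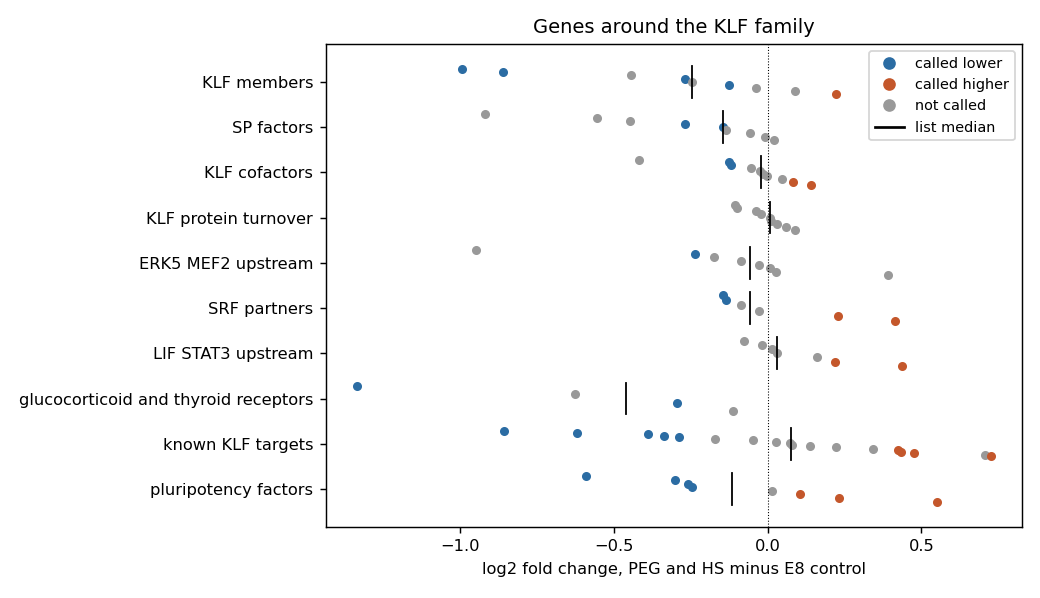
Log2 fold change (horizontal axis, PEG and HS minus E8 control) of each tested gene in the lists around the Kruppel-like factors, one point per gene coloured by its call, with a line at each list's median. The members spread from -0.996 to 0.22 with a median of -0.25 (the value of KLF2), the turnover genes hold 0 calls, and the receptors have a median of -0.46.

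Markers of other cell types moved with the medium as well, where 25.3% of all genes tested were called, 12.2% higher and 13.1% lower. The 6 neuroectoderm markers (PAX6, SOX1, OTX2, LHX5, OLIG3 and HES5) all fell by edgeR, with no adjusted p for HES5 by DESeq2, and their summed level was 33.5 to 37.55 CPM with PEG and HS against 142 to 147.5 CPM in the controls. The paper had already reported SOX1, OLIG3, LHX5 and OTX2 as lower in these same data, so their fall here is no independent evidence. Of 7 trophectoderm and amnion markers, 3 fell and the rest were not called or not tested (summed 6.94 to 7.15 and 14.9 to 15.85 CPM), with TFAP2A at 0.603 and 6.00 CPM, and CDX2 near 0. One of the 3, HAND1, rested on 16 counts and had no adjusted p by DESeq2. Of 7 fibroblast and smooth muscle markers, 5 fell and 2 were not called (summed 170.5 to 179 and 234 to 260 CPM). Of these calls, ACTA2 was not made by DESeq2 (adjusted p = 0.0831) and DCN not by limma-voom (adjusted p = 0.0703). Of 6 endothelial markers KDR rose and TEK and VWF fell, with PECAM1 at 0.0987 and 0.0936 CPM, and the 8 mesoderm and endoderm markers had 0 calls in edgeR, DESeq2 or limma-voom, with 1 higher and 1 lower at an unadjusted p under 0.05 in edgeR. The part of such cells in the levels of the Kruppel-like factors was not tested.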

How the data were processed

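NCRM-1 aggregates were profiled in 6 libraries, 3 in PEG and HS and 3 in E8 control, grouped by the treatment label. The authors deposited raw counts of reads per Ensembl gene, 1 library per file, from a stranded mRNA kit. Per their methods and processing notes, reads were trimmed with Trim Galore 0.6.7 and mapped to GRCh38 with STAR 2.6.1 in an nf-core pipeline. The counting tool, its strand setting and the annotation release are not given in the sources used here, so reads of overlapping antisense genes may be included. Of 19977 identifiers, 19916 matched GENCODE 44, which gave symbols, exon lengths and coordinates.

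Genes with at least 10 counts in total (16505) were tested under R 4.3.3 by edgeR 4.0.16 (TMM library sizes, glmQLFit then glmQLFTest, without covariates), and p-values were adjusted over all of them by Benjamini-Hochberg. SE was derived from the log2 fold change and the F statistic, and 95% intervals use the degrees of freedom of the fit. The common biological coefficient of variation was 3.12%. For 1 gene, 3 against 3 libraries allow no two-sided exact permutation p below 0.1. Within a medium, no 2 libraries agreed within sampling noise (chi-square over its degrees of freedom from 2.61 to 3.6), and each was kept. The members and lists were chosen with earlier results of these data known. Named were all 18 family genes and, in each further list, the 2 called genes with the lowest adjusted p per direction, except that marker lists are given as counts and summed CPM. The choice of any other named gene followed from its values. Alternatives were DESeq2 1.42.0, limma-voom (limma 3.58.1), 3 scalings, 3 filters, a replicate block, a test against a 1.2-fold change and each library left out. Scripts were tested on simulated data.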

Additional observations from a re-analysis of the deposited data

How the results depend on the processing

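The 4 lower calls and the 1 higher call among the members held with DESeq2, limma-voom, other size factors, library size alone, the 3 other filters and the replicate block. Correlations of deviations were 0.0194 to 0.029 for same-numbered samples and -0.0569 to 0.0284 for the others. With 3 samples per medium, these cannot decide whether the numbers pair the samples. The replicate block gave 2187 higher and 2257 lower calls over all genes, with the calls among the family genes unchanged. With a 1.2-fold change as the null, edgeR called 2 members lower (KLF4 and KLF5) and 0 higher, 1 other family gene lower (KLF15), and 653 genes lower and 215 higher over all genes. KLF7, KLF8, KLF10 and KLF13 lost their call there. With each library left out in turn, 3 to 4 members were called lower and 1 higher, and the total over all genes was 1661 to 1938 lower and 1453 to 1751 higher. KLF13 was the member lost, without PEG and HS replicate 1. KLF4 stayed between -0.92 and -0.81 on the log2 scale and KLF5 between -1.15 and -0.83. The uncalled KLF2 ranged from -0.51, without PEG and HS replicate 2, to -0.018, without E8 control replicate 1, and KLF9 from -0.54 to -0.29, the latter without E8 control replicate 2. The uncalled KLF12 ranged from -0.022, without PEG and HS replicate 1, to 0.061, and the uncalled KLF1 ranged from -0.0093 to 0.94, at -0.00072 without E8 control replicate 1. The depth limits KLF2, for which no difference was detectable, and KLF17, KLF14 and KLF18, which were not tested in the main fit.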
